A study of Mus musculus with 4 samples.

Results

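The 10 genes described here encode the HSP70 and HSP90 chaperones of the endoplasmic reticulum (ER) and the proteins that work directly with them: Hspa5, Hsp90b1, Hyou1, Sil1, Dnajc3, Dnajb9, Dnajb11, Dnajc10, Dnajc1 and Sdf2l1. They were listed by gene symbol from their known roles, at a time when earlier results of these data were known. All 10 were among the 32286 features counted in each library. Hspa5 encodes BiP, the HSP70 of the ER lumen, and Hsp90b1 encodes GRP94, its HSP90. BiP binds unfolded stretches of a secretory or membrane protein and lets go of them in a cycle driven by ATP. J proteins bring clients to BiP and start ATP hydrolysis, and nucleotide exchange factors then release ADP so that the cycle can begin again. Several of these genes are textbook targets of the unfolded protein response (UPR), the set of pathways by which a cell raises the folding capacity of its ER when unfolded protein builds up.

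The study asked what the loss of SEL1L does to neurons. SEL1L is the partner of the ubiquitin ligase HRD1 in ER-associated degradation (ERAD), which removes misfolded proteins from the ER. Nuclei from the cortex and hippocampus of 4 mice aged 5 weeks were sorted, and their RNA was counted by 3′ single-nucleus RNA sequencing, with 1 library per mouse. Of the libraries, 2 were labelled Sel1L flox/flox, and 2 were labelled Sel1L Syn-Cre, in which the floxed gene is combined with a Cre transgene under the Synapsin I promoter, so that recombination follows the activity of a promoter of postmitotic neurons. By these labels all 4 mice carry floxed Sel1L alleles. In the text below a group is named by the label of its libraries.

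After filtering, 33323 nuclei remained, of which 25515 fell into 16 classes named from marker genes: 11 neuron-like and 5 glia-like or vascular-like. A library held between 66167019 and 100984599 unique molecular identifiers (UMIs, 1 per captured RNA molecule) in its kept nuclei. The UMIs of each class were summed in each library, and levels are given as CPM, the gene's UMIs divided by that sum and multiplied by a fixed round number as is usual. Because the RNA is nuclear and the counts are not scaled to gene length, CPM was compared between classes and labels within a gene, and never between genes. Sums ranged from 69783 UMIs in 36 vascular-like nuclei of flox/flox replicate 2 to 11851345 UMIs in the layer 2/3 intratelencephalic (L2/3 IT)-like neurons of flox/flox replicate 1. The classes were formed from the same counts, so differences between classes are described without a test. Between 10 and 34 cell barcodes were shared by any pair of libraries before filtering.

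The targeted gene did not fall with the label. Sel1l stood at 97.1 and 90.04 CPM in the flox/flox libraries and at 155 and 128 CPM in the Syn-Cre libraries. The Cre sequence, counted as its own feature, gave 409 UMIs in flox/flox replicate 1, none in flox/flox replicate 2, and 236 and 221 UMIs in the Syn-Cre libraries. The count tables do not show which part of Sel1l the reads came from, so a deletion within the gene is not checked by them. Derl3, a UPR-responsive ERAD gene, gave 52 and 40 UMIs in the flox/flox libraries and 1108 and 672 UMIs in the Syn-Cre libraries, so that flox/flox replicate 1 grouped with its label for this gene despite its Cre counts. Which Sel1l alleles that mouse carries cannot be read from the counts. The main results are given with and without flox/flox replicate 1. Replicate 1 of each label carried the Y-linked gene Ddx3y, at 48.6 CPM in both, and replicate 2 of each label carried Xist, at 1614 and 1474 CPM, so the sexes were balanced between the labels.

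Most members were higher in the Syn-Cre libraries in some classes and were not called in others. Across the 11 neuron-like classes, 108 of the 110 pairs of a member and a class passed the filter on low counts. Of these, 40 (37%) were higher in the Syn-Cre libraries by edgeR's quasi-likelihood test at an adjusted p below 0.05, against 1.01% of all gene and class pairs tested. None was lower by edgeR or by DESeq2, and 2 were lower at an unadjusted p below 0.05. In the glia-like and vascular-like classes, 8 of 46 tested pairs (17.4%) were higher, against 1.1% of all pairs, and again none was lower by either tool or at an unadjusted p below 0.05. Without flox/flox replicate 1 the counts were 41 and 10. Of the called pairs, 7 and 1 passed the filter only with the help of the Syn-Cre libraries: Sdf2l1 in 7 classes and Hyou1 in Lamp5-like neurons. A gene admitted by the group where it is high is more likely to be called, so these pairs are given as values only. The counts without such pairs are 33 of 99 and 7 of 44.

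The classes fell along a wide range. In dentate gyrus (DG)-like granule neurons and in Pvalb-like and Sst-like interneurons, 8 of 10 members were higher, and these were the same 8 genes: all but Sil1 and Dnajc1. Without Sdf2l1, which passed the filter in these classes only with the Syn-Cre libraries, the count is 7 of 9 in each. The share of all genes called higher was 1.83% in DG-like, 2.18% in Pvalb-like and 5.13% in Sst-like neurons. The median log2 fold change of the 10 members was 1.87, 1.87 and 2.11 in these classes, beside 0.0060, 0.0086 and 0.0084 for all genes tested. Lamp5-like interneurons had 6 members called (background 0.267%), layer 4/5 intratelencephalic (L4/5 IT)-like neurons had 5 (1.03%), layer 6 corticothalamic (L6 CT)-like neurons had 3 (0.471%) and CA3-like neurons had 2 (0.0328%). Without pairs that passed the filter only with the Syn-Cre libraries, Lamp5-like neurons had 4 of 8. L4/5 IT-like neurons then had 4 of 9, L6 CT-like neurons 2 of 9 and CA3-like neurons 2 of 9. The median log2 fold change of the 10 members was 1.72 in Lamp5-like, 0.82 in L4/5 IT-like, 0.47 in L6 CT-like and 1.22 in CA3-like neurons. The order by number of calls was thus not the order by median. In CA3-like neurons only 4 of 12198 genes were called higher, so few calls there do not show a small change. Of these classes, CA3-like neurons had the calls that rested most on single libraries: without flox/flox replicate 1 or without flox/flox replicate 2 no member passed, although the log2 fold changes of Hspa5 stayed at 1.39 and 1.43. In L6 CT-like neurons 1 call remained without flox/flox replicate 1. In DG-like, Pvalb-like and Sst-like neurons the counts without that library were 7, 8 and 9.

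No member was called in 4 neuron-like classes. In CA1-like neurons the count was 0 of 10 by edgeR (background 0.0%) and by DESeq2, and also 0 of 10 at an unadjusted p below 0.05. The median log2 fold change of the members was 0.061. Here and below, each background is the share of all genes called higher by edgeR at an adjusted p below 0.05. For counts at an unadjusted p no share of all genes is given, so they have no background beside them. In L2/3 IT-like neurons 0 members were called by either tool (background 0.0328%), with 4 higher and 1 lower at an unadjusted p below 0.05. Without flox/flox replicate 1, Hspa5 and Dnajc1 were called there. In layer 5/6 intratelencephalic (L5/6 IT)-like neurons the count was 0 by either tool (background 0.403%), with 1 higher unadjusted. In Vip-like interneurons it was 0 by either tool (background 0.00896%), with 3 higher unadjusted. A fit with no filter on low counts called 3 members in L2/3 IT-like neurons, and a replicate block called 1 in L5/6 IT-like neurons. Leaving out a library changed the result in L2/3 IT-like, L5/6 IT-like and Vip-like neurons, but not in CA1-like neurons. The L5/6 IT-like class was named from 3 of its 7 listed markers. Deptor, on the same list, was among the leading genes of an unnamed cluster of 1110 nuclei. Hspa5 stood there at 20.7 and 21.5 CPM in the flox/flox and 43.7 and 46.9 CPM in the Syn-Cre libraries. The Vip-like sums held 1161443 to 2155725 UMIs and the Lamp5-like sums 1075457 to 1695612, and the part of depth in the Vip-like count was not tested. For Hspa5 and for Dnajc3, every Syn-Cre library was above both flox/flox libraries in all 11 neuron-like classes, including these 4. For the other members the number of such classes ran from 1 (Sil1) to 10 (Sdf2l1). It was 7 for Dnajc1, which was called in no class, so such separation also occurred without a call. The share of all genes that separated in this way was not counted, and all classes come from the same mice. With 2 libraries per label, such separation is a description and not a test.

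**Figure D1:**
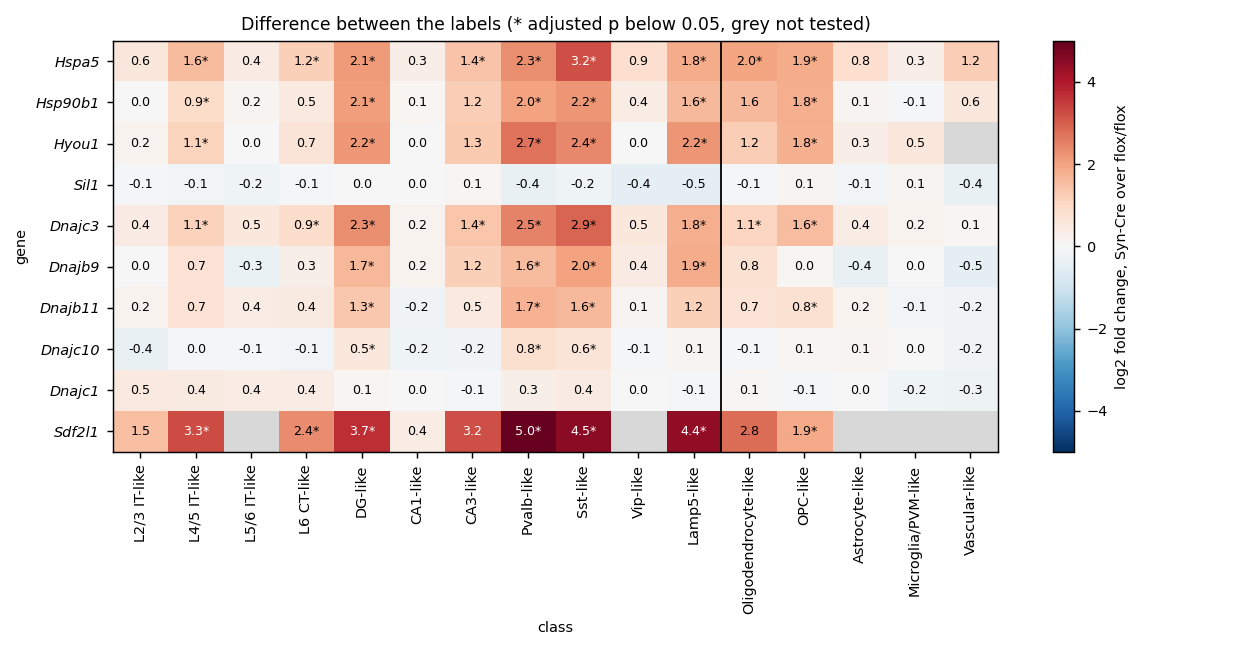
Heat map of the edgeR log2 fold change (Syn-Cre over flox/flox, red higher and blue lower) for the 10 genes (rows) in the 16 classes (columns, neuron-like to the left of the line). Stars mark an adjusted p below 0.05 and grey cells were not tested. The DG-like, Pvalb-like and Sst-like columns carry 8 stars each, the CA1-like column carries none, and the Sil1 and Dnajc1 rows carry none. Every star of Sdf2l1, and that of Hyou1 in Lamp5-like neurons, is of a pair that passed the filter only with the Syn-Cre libraries.

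Upstream of 3 members lies the ER stress element (ERSE), the DNA motif through which the UPR factors ATF6 and XBP1 are known to act. RefSeq promoters of build GRCm38.p6, from 250 bases before to 50 bases after each start, were listed for 8 members (all but Hyou1 and Sil1). The ERSE was searched as CCAAT followed by CCACG with 9 bases between them, on both strands. It was found in 39 of 32851 promoters (0.119%), among them those of Hspa5, Dnajc3 and Hsp90b1, the last with 1 copy on the gene's strand and 1 on the other. The copies began 65 bases before the start in Hspa5, 105 in Dnajc3, and 212 and 107 in Hsp90b1. The stretches around them are shown to let the shared elements be compared. Each is written 5′ to 3′ on the gene's strand, with the CCAAT and CCACG parts, or their reverse complements, in capitals.
Hspa5, chr2:34772010-34772058, plus strand: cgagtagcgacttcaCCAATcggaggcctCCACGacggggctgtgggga
Dnajc3, chr14:118937812-118937860, plus strand: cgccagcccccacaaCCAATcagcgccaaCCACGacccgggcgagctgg
Hsp90b1, chr10:86705518-86705671, minus strand: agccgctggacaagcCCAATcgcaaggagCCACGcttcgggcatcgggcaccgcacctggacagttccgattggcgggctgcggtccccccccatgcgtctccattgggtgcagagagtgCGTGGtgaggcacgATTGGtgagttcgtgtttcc

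The related ERSE-II (ATTGG and CCACG with 1 base between them) was found in 12 promoters (0.0365%), among them that of Dnajb11, where it lay just after the start. The UPR element TGACGTGG was in 0.676% of promoters and the amino acid response motif TGATGCAA in 0.895%, and neither was in the window of a member. None of the 4 motifs was in the windows of Dnajb9, Dnajc10, Dnajc1 or Sdf2l1. These matches describe the listed windows only. Dnajb9, which holds none of them, was called in 4 neuron-like classes. Hspa5, Hsp90b1 and Dnajc3, which hold the ERSE, were called in 7, 5 and 7. Dnajb11, which holds the ERSE-II, was called in 3. Dnajc10 and Dnajc1, which hold none of the motifs, were called in 3 and 0. Whether the motifs go with the number of calls was not tested. Sdf2l1 also holds none, but passed the filter only with the Syn-Cre libraries wherever it was called, so its calls are not counted here.

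Hspa5, the gene for BiP, was called in 7 of 11 neuron-like classes. In DG-like neurons it stood at 27.9 and 27.5 CPM in the flox/flox libraries and at 137 and 117 CPM in the Syn-Cre libraries, a log2 fold change of 2.14 ± 0.13 (SE; adjusted p = 2.09e-06, edgeR). In Pvalb-like neurons the values were 25.8, 28.0, 174 and 111 CPM in the same order, with a log2 fold change of 2.33 ± 0.21 (adjusted p = 0.000136, edgeR). In Sst-like neurons they were 19.3, 25.01, 288 and 144 CPM, with a log2 fold change of 3.23 ± 0.25 (adjusted p = 1.8e-08, edgeR), or 9.40-fold, which fell to 2.63 on the log2 scale without Syn-Cre replicate 1. The labels did not overlap in any of these classes, and Syn-Cre replicate 1 was above replicate 2 in each. Lamp5-like neurons (21.2, 28.8, 114 and 74.5 CPM), L4/5 IT-like neurons (22.2, 17.4, 70.6 and 51.9 CPM), CA3-like neurons (20.3, 21.5, 57.2 and 60.4 CPM) and L6 CT-like neurons (23.1, 25.1, 64.5 and 51.3 CPM) followed, with log2 fold changes of 1.84, 1.57, 1.42 and 1.21. The L6 CT-like call was lost without flox/flox replicate 1, where the log2 fold change was 1.18 (edgeR adjusted p = 0.0512). In CA1-like neurons Hspa5 stood at 19.2, 21.3, 29.3 and 22.7 CPM, a log2 fold change of 0.32 ± 0.19 (adjusted p = 0.699, edgeR). Over these 8 classes the flox/flox libraries lay between 17.4 and 28.8 CPM, and the Syn-Cre libraries between 22.7 and 288 CPM.

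In the flox/flox libraries the mean level of Hspa5 was highest in microglia or perivascular macrophage (Microglia/PVM)-like nuclei, at 68.9 CPM, followed by vascular-like nuclei at 48.1 CPM, and lowest in L4/5 IT-like neurons, at 19.8 CPM. All 5 glia-like and vascular-like classes were above all 11 neuron-like classes. Of the 15 neighbouring pairs in this order only 3 had flox/flox libraries that did not overlap, so most neighbouring ranks were not resolved. In the Syn-Cre libraries Sst-like neurons, at 288 and 144 CPM, exceeded Microglia/PVM-like nuclei, at 118 and 56.8 CPM.

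**Figure D2:**
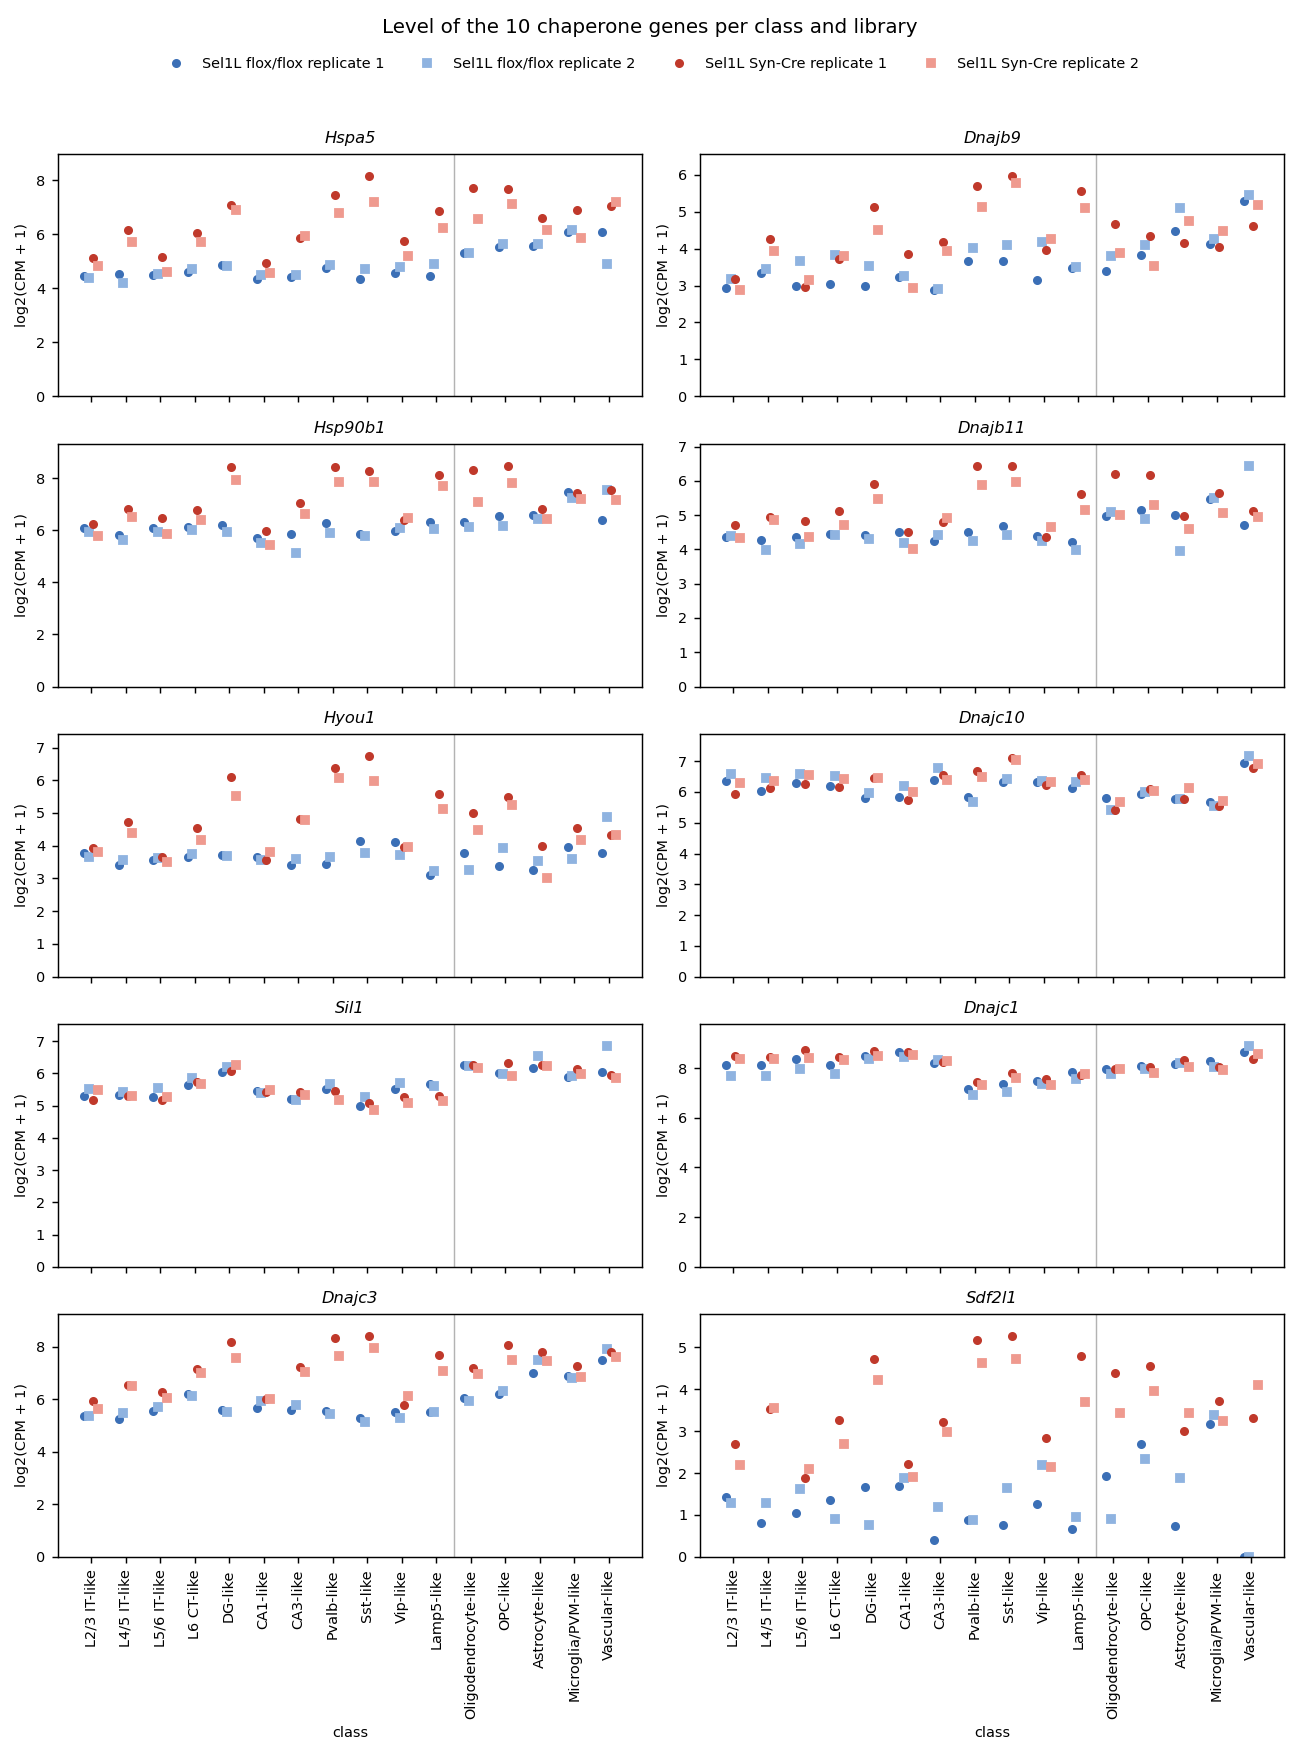
Level of each of the 10 genes, as log2(CPM + 1), in the 16 classes, with 1 point per library (blue, flox/flox; red, Syn-Cre; circles, replicate 1; squares, replicate 2). Red points stand clear of blue points for Hspa5, Hsp90b1, Hyou1, Dnajc3, Dnajb9, Dnajb11 and Sdf2l1 in DG-like, Pvalb-like, Sst-like and Lamp5-like neurons, while in CA1-like neurons they lie close together. The points of Sil1 lie close together in all classes but vascular-like nuclei.

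Hsp90b1, the gene for GRP94, which folds a narrower set of secreted and membrane proteins than BiP, was called in 5 neuron-like classes, all of them among the 7 of Hspa5. It stood at 72.8, 60.8, 344 and 246 CPM in DG-like granule neurons (log2 fold change 2.08 ± 0.16, edgeR adjusted p = 1.01e-05), at 76.2, 59.0, 343 and 232 CPM in Pvalb-like neurons (2.00 ± 0.20, adjusted p = 0.000244) and at 56.9, 53.8, 312 and 234 CPM in Sst-like neurons (2.22 ± 0.16, adjusted p = 4.59e-09). Lamp5-like neurons, at 79.0, 66.0, 281 and 206 CPM, gave a log2 fold change of 1.63, and L4/5 IT-like neurons, at 55.2, 48.8, 111 and 90.2 CPM, gave 0.90. In CA3-like neurons the labels did not overlap, at 57.9, 34.0, 132 and 97.7 CPM, but the test did not pass (log2 fold change 1.23, edgeR adjusted p = 0.238). The same held in L6 CT-like neurons, at 68.3, 63.4, 109.9 and 84.5 CPM (0.50, adjusted p = 0.235). L2/3 IT-like neurons (67.0, 60.4, 74.01 and 54.4 CPM) and CA1-like neurons (50.6, 44.4, 62.3 and 43.0 CPM) had overlapping labels. As for Hspa5, the highest flox/flox mean was that of Microglia/PVM-like nuclei, at 163 CPM, and the lowest that of a neuron-like class, CA3-like, at 46.0 CPM, with 1 of 15 neighbouring pairs without overlap. Hsp90b1 lies at chr10:86690209-86705509 on the minus strand, where Gm15344 overlaps it on the same strand with 76 UMIs against 20184 for Hsp90b1.

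The nucleotide exchange factors went different ways. Hyou1 encodes GRP170, a large HSP70 relative that is both an exchange factor for BiP and a chaperone of its own. It stood at 12.2, 11.8, 68.3 and 45.0 CPM in DG-like granule neurons (log2 fold change 2.18 ± 0.21, edgeR adjusted p = 8.44e-05), at 9.81, 11.5, 82.1 and 65.9 CPM in Pvalb-like neurons (2.73 ± 0.21, adjusted p = 8.65e-05), and at 16.5, 12.8, 106 and 62.5 CPM in Sst-like neurons (2.42 ± 0.25, adjusted p = 8.4e-07). It stood at 7.67, 8.37, 47.0 and 33.8 CPM in Lamp5-like neurons, where it passed the filter through the Syn-Cre libraries. It was also called in L4/5 IT-like neurons (9.58, 10.7, 25.4 and 19.7 CPM), but not without flox/flox replicate 1 (log2 fold change 1.06, edgeR adjusted p = 0.0651). Sil1, the gene for the smaller exchange factor whose loss causes Marinesco-Sjögren syndrome, was not called in any of the 16 classes. Its values were 64.9, 71.9, 66.2 and 75.5 CPM in DG-like neurons, 44.8, 50.3, 43.0 and 35.0 CPM in Pvalb-like neurons, and 31.0, 37.3, 33.1 and 27.9 CPM in Sst-like neurons. The labels of Sil1 overlapped in 2 of these classes and not in Pvalb-like neurons, where the Syn-Cre libraries were the lower (log2 fold change -0.35 ± 0.18, edgeR adjusted p = 0.335). Over all classes its log2 fold change ran from -0.51 in Lamp5-like neurons to 0.14 in OPC-like nuclei. The Lamp5-like value was its only one at an unadjusted p below 0.05. Over the named classes 10338 UMIs were counted for Sil1.

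Of the 5 J proteins, Dnajc3, Dnajb9 and Dnajb11 gave the larger changes. Dnajc3 encodes p58IPK, a co-chaperone of BiP first known as an inhibitor of eIF2 alpha kinases, and it was called in the same 7 neuron-like classes as Hspa5. It stood at 47.2, 44.7, 288 and 191 CPM in DG-like granule neurons (log2 fold change 2.32 ± 0.17, edgeR adjusted p = 9.72e-06), at 46.2, 42.9, 326 and 198 CPM in Pvalb-like neurons (2.48 ± 0.22, adjusted p = 8.65e-05) and at 38.6, 34.6, 339 and 248 CPM in Sst-like neurons (2.91 ± 0.17, adjusted p = 3.06e-10). In L6 CT-like neurons it moved from 72.0 and 68.7 CPM to 143 and 126 CPM (log2 fold change 0.87), a call lost without Syn-Cre replicate 1, where the value was 0.74. In CA1-like neurons it was at 50.4, 59.8, 63.1 and 63.5 CPM, without overlap of the labels but with a log2 fold change of only 0.16 ± 0.14 (adjusted p = 0.788, edgeR).

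Dnajb9 encodes ERdj4, known to recruit BiP to the lumenal side of the UPR sensor IRE1, and Dnajb11 encodes ERdj3, a J protein that binds clients itself. Dnajb9 stood at 6.91, 10.4, 33.6 and 21.6 CPM in DG-like granule neurons (log2 fold change 1.66 ± 0.26, edgeR adjusted p = 0.00363), at 11.8, 15.3, 51.0 and 34.2 CPM in Pvalb-like neurons (1.60, adjusted p = 0.00362) and at 11.7, 15.97, 61.9 and 53.9 CPM in Sst-like neurons (2.01, adjusted p = 2.37e-06). It was also called in Lamp5-like neurons, at 10.0, 10.2, 46.0 and 33.0 CPM. Dnajb11 stood at 20.4, 18.6, 59.3 and 43.3 CPM in DG-like granule neurons (log2 fold change 1.33, edgeR adjusted p = 0.00124), at 21.9, 18.1, 85.1 and 57.3 CPM in Pvalb-like neurons (1.74, adjusted p = 0.00101) and at 24.5, 20.2, 84.7 and 61.3 CPM in Sst-like neurons (1.61, adjusted p = 1.75e-05). In all 3 classes every Syn-Cre library was above both flox/flox libraries for each gene. In Lamp5-like neurons Dnajb11, at 17.7, 14.9, 47.9 and 34.7 CPM, did not pass (log2 fold change 1.21, edgeR adjusted p = 0.112) and did so without flox/flox replicate 1 (adjusted p = 0.0117).

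Dnajc10 and Dnajc1 moved less. Dnajc10 encodes ERdj5, which reduces disulfides of proteins on their way to degradation. It was at 54.5, 61.7, 86.0 and 85.9 CPM in DG-like granule neurons (log2 fold change 0.51 ± 0.12, edgeR adjusted p = 0.0296), at 55.5, 49.5, 102 and 88.6 CPM in Pvalb-like neurons (0.79 ± 0.16, adjusted p = 0.0145) and at 79.6, 84.6, 138 and 131 CPM in Sst-like neurons (0.63 ± 0.15, adjusted p = 0.00699). The labels did not overlap in these classes. The DG-like call was lost under 6 of the 13 other settings, among them leaving out flox/flox replicate 1 (log2 fold change 0.43), flox/flox replicate 2 (0.58) or Syn-Cre replicate 1 (0.50). The Pvalb-like and Sst-like calls were lost without Syn-Cre replicate 1 (0.67 and 0.58), and the Sst-like call also with DESeq2. In L2/3 IT-like neurons Dnajc10 was lower in the Syn-Cre libraries at an unadjusted p below 0.05, at 80.9, 94.0, 59.8 and 77.2 CPM (log2 fold change -0.36, edgeR adjusted p = 0.332).

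Dnajc1 encodes ERdj1, a J protein of the ER membrane that binds ribosomes. It was called in no class, and its log2 fold change ran from -0.26 to 0.50. The flox/flox libraries differed from each other in cortical excitatory neurons: Dnajc1 was at 275 and 203 CPM in L2/3 IT-like neurons, against 360 and 326 CPM in the Syn-Cre libraries. Without flox/flox replicate 1 the log2 fold change was 0.78 in L2/3 IT-like (edgeR adjusted p = 0.00046), 0.71 in L4/5 IT-like (adjusted p = 0.0391), 0.66 in L5/6 IT-like (adjusted p = 0.0176) and 0.61 in Sst-like neurons (adjusted p = 0.0184). Dnajc1 spans 197.177 kb at chr2:18195654-18392830 and overlaps Mllt10 on the other strand, which had 57062 UMIs against 61537 for Dnajc1. Whether the authors' counting used the strand of a read is not given in the sources used here, and without it reads of these genes cannot be told apart.

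Sdf2l1 encodes a soluble partner of ERdj3 and BiP that keeps their clients from aggregating. It was scarce in the flox/flox libraries. DG-like neurons held 15 and 3 UMIs in the flox/flox libraries and 96 and 59 in the Syn-Cre libraries (2.16, 0.681, 25.4 and 17.5 CPM). Pvalb-like neurons held 3, 2, 83 and 58 UMIs in the same order, Sst-like neurons 2, 4, 69 and 41, and Lamp5-like neurons 1, 1, 29 and 14. In each of these classes Sdf2l1 passed the filter only with the Syn-Cre libraries, so no p-value is given for it. The fitted log2 fold changes were 3.70 ± 0.38, 4.99 ± 0.43, 4.50 ± 0.45 and 4.45 ± 0.74, and without flox/flox replicate 1 they were 4.88, 5.03, 3.80 and 4.15. The Sst-like value was 5.28 without flox/flox replicate 2, and the Lamp5-like value 3.75 without Syn-Cre replicate 1. They rest on few flox/flox molecules, so the ratio of pooled CPM is also given with its exact 95% interval, which covers counting error only. It was 13.7 (8.37 to 23.7) in DG-like, 35.1 (14.7 to 109.9) in Pvalb-like, 25.4 (11.3 to 70.6) in Sst-like and 26.3 (6.84 to 224) in Lamp5-like neurons. L4/5 IT-like neurons held 7, 10, 60 and 81 UMIs, with a pooled ratio of 10.1 (6.11 to 17.9), and L6 CT-like neurons held 12, 4, 44 and 31, with a ratio of 5.32 (3.07 to 9.78). CA1-like neurons held 16, 11, 13 and 10 UMIs, and there the pooled ratio was 1.34 (0.734 to 2.43). In CA3-like neurons the ratio was 10.4 (3.75 to 40.2), from 4 pooled flox/flox UMIs. L2/3 IT-like neurons, where Sdf2l1 passed the filter on the flox/flox libraries alone, gave 2.81 (1.86 to 4.34). Where Sdf2l1 was not tested, the ratio was 1.97 (0.871 to 4.74) in L5/6 IT-like and 2.22 (0.870 to 6.11) in Vip-like neurons.

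Because a call in one class and none in another does not show that the classes differ, the difference between labels was itself compared between classes, with each library as a block. Relative to CA1-like neurons, 8 members rose more in DG-like (1.57% of all genes tested did), 8 in Pvalb-like (1.36%) and 8 in Sst-like neurons (1.97%). L4/5 IT-like neurons had 4 such members (0.243%), Lamp5-like neurons 3 (0.0674%), L6 CT-like neurons 2 (0.238%) and CA3-like neurons 2 (0.0812%). They were 0 in L2/3 IT-like (0.103%), L5/6 IT-like (0.0658%) and Vip-like neurons (0.0%). No member was called with a smaller difference than in CA1-like neurons by edgeR in the 10 comparisons, although single estimates were negative. In CA1-like neurons 0 genes were called higher and 0 lower, so this reference leaves little room for a smaller difference. For Hspa5 the difference of log2 fold changes was 1.83 ± 0.19 in DG-like (edgeR adjusted p = 1.14e-08), 2.02 ± 0.20 in Pvalb-like (adjusted p = 4.22e-06) and 2.88 ± 0.24 in Sst-like neurons (adjusted p = 8.69e-08). For Sil1 it was 0.047 ± 0.16, -0.31 ± 0.20 and -0.19 ± 0.23 in these classes. All 10 comparisons share the CA1-like sums. They gave 35 calls with edgeR, 31 of them without pairs that passed the filter with the Syn-Cre libraries, and 15 with DESeq2.

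**Figure D3:**
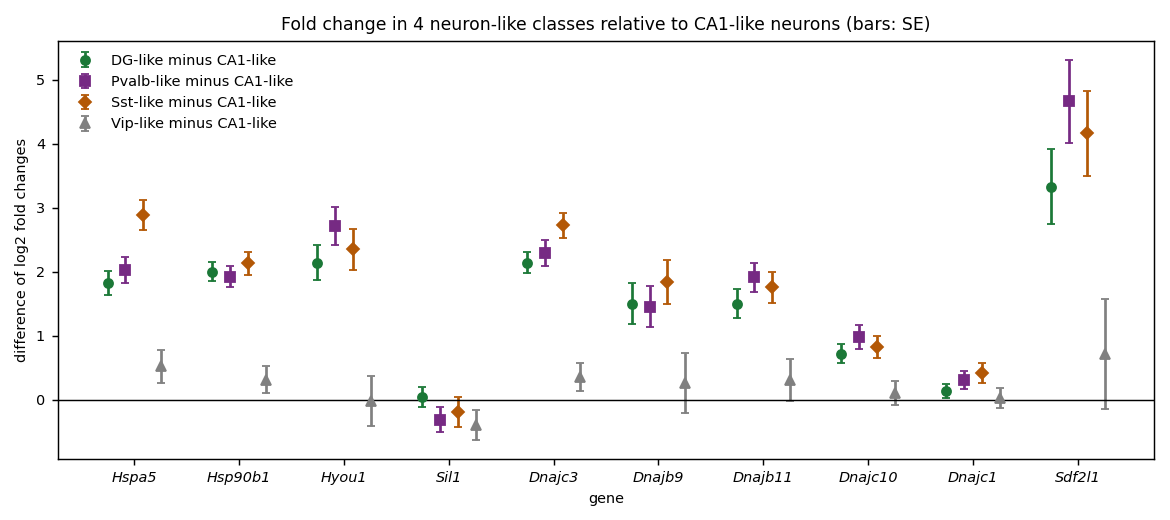
Difference between the log2 fold change (Syn-Cre over flox/flox) in a class and that in CA1-like neurons, for each of the 10 genes in 4 classes; points are edgeR estimates and bars are standard errors. DG-like, Pvalb-like and Sst-like points lie well above 0 for 7 genes and by less for Dnajc10, while those of Sil1 and Dnajc1 lie between -0.31 and 0.42, and the Vip-like points lie between -0.39 and 0.72. The 7 genes include Sdf2l1, which passed the filter in DG-like, Pvalb-like and Sst-like neurons only with the Syn-Cre libraries.

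The rise was not confined to neuron-like nuclei. In nuclei like oligodendrocyte precursor cells (OPC-like), 6 of 10 members were called higher (background 3.55%), and 6 without flox/flox replicate 1. Without Sdf2l1, which passed the filter with the Syn-Cre libraries, the count is 5 of 9. The median log2 fold change of the 10 members was 1.17, beside 0.0061 for all genes. Hspa5 stood at 45.3, 48.9, 203 and 140 CPM (log2 fold change 1.86 ± 0.19, edgeR adjusted p = 6.19e-09) and Hsp90b1 at 92.7, 71.4, 358 and 223 CPM (1.81 ± 0.19, adjusted p = 8.11e-09). Hyou1, Dnajc3, Dnajb11 and Sdf2l1 were the other 4, with log2 fold changes of 1.78, 1.56, 0.78 and 1.91. Dnajb11 was not called without flox/flox replicate 2 (0.63) or Syn-Cre replicate 1 (0.24). The Cre sequence was counted in these nuclei too, at 13.54 CPM in flox/flox replicate 1, 0 in flox/flox replicate 2, and 17.4 and 11.6 CPM in the Syn-Cre libraries, and Sel1l was higher with the label (log2 fold change 1.49 ± 0.22). The make-up of the class differed between the labels. Its 6 mature oligodendrocyte markers summed to 2333 to 3019 CPM in the flox/flox and to 104 to 170 CPM in the Syn-Cre libraries, all 6 called lower, while 2 of 6 astrocyte markers were called higher (sums of 514 to 633 and 767 to 934 CPM). The 6 neuron markers summed to 1125 to 1215 and 1179 to 1184 CPM. The part of this make-up in the result was not tested.

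In oligodendrocyte-like nuclei 2 members were higher (background 0.706%). Hspa5 stood at 39.1, 38.4, 211 and 93.2 CPM (log2 fold change 1.97 ± 0.32, edgeR adjusted p = 0.0214), and Dnajc3 at 64.9, 60.5, 146 and 122 CPM (1.08 ± 0.18, adjusted p = 0.0217). Neither was called without flox/flox replicate 2 (log2 fold changes 1.95 and 1.03), whereas 4 were called without flox/flox replicate 1. Neither was called with doublets kept, and Dnajc3 was not called with the crossed replicate numbers. The Hspa5 value fell to 1.18 without Syn-Cre replicate 1. Hsp90b1 (78.4, 69.7, 323 and 136 CPM, edgeR adjusted p = 0.0570) missed the threshold, and Sdf2l1 was at 2.80, 0.860, 19.9 and 9.71 CPM. This class held 1847 and 1174 nuclei in the flox/flox libraries and 357 and 365 in the Syn-Cre libraries. Its neuron markers summed to 631 to 855 CPM in the flox/flox and 685 to 769 CPM in the Syn-Cre libraries, and Cre gave 2 UMIs in flox/flox replicate 1 and none in the other libraries.

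Astrocyte-like, Microglia/PVM-like and vascular-like nuclei had 0 members called by edgeR or DESeq2 (backgrounds 0.799%, 0.056% and 0.0%), with 1, 0 and 1 higher at an unadjusted p below 0.05. The vascular-like class is the least firmly named: only 37.3% of its nuclei kept the name without integration, and both Cldn5 and Flt1 of endothelial cells and Slc6a20a and Bnc2, which are known from fibroblasts, were among its leading genes. Hspa5 in astrocyte-like nuclei, at 46.1, 49.1, 95.8 and 70.8 CPM, gave a log2 fold change of 0.82 ± 0.22 (adjusted p = 0.1249, edgeR), without overlap of the labels, and was called when flox/flox replicate 2 (0.87) or Syn-Cre replicate 2 (1.04) was left out. In Microglia/PVM-like nuclei, where its flox/flox level was highest, it stood at 67.3, 70.5, 118 and 56.8 CPM, with overlapping labels. Set against astrocyte-like nuclei, 5 members rose more in DG-like (0.555% of genes did), 6 in Pvalb-like (0.833%) and 6 in Sst-like neurons (0.942%), Hspa5 in Sst-like neurons where the difference of log2 fold changes was 2.36 ± 0.28 (adjusted p = 5.19e-05, edgeR). In vascular-like nuclei, where flox/flox replicate 2 held only 36 nuclei, Sdf2l1 gave 0 UMIs in both flox/flox libraries and 6 in each Syn-Cre library. The pooled Syn-Cre level was 2.07-fold a floor of 3 counts over the flox/flox group, with counting error in the Syn-Cre counts left out. Sdf2l1 was not tested in this class.

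To see whether a few nuclei carried the rise, each nucleus was thinned to 2000 UMIs and the share with at least 1 Hspa5 UMI was taken. In Sst-like neurons it was 5.58% and 6.08% in the flox/flox and 42.0% and 27.1% in the Syn-Cre libraries, a difference of 28.7 percentage points between the means. In Pvalb-like neurons the shares were 4.45%, 5.43%, 30.9% and 19.5%, and in DG-like neurons 5.48%, 5.14%, 22.7% and 18.4%. In CA1-like neurons they were 2.84%, 5.05%, 6.07% and 5.00%, with overlapping labels. The flox/flox shares of these 4 classes lay between 2.84% and 6.08%. No class is known to lack BiP, so no background share could be set and a share does not separate expressing from other nuclei. Thinning kept 251, 181, 169 and 155 Sst-like nuclei, 292, 221, 217 and 210 Pvalb-like, 840, 525, 484 and 425 DG-like, and 528, 297, 280 and 280 CA1-like. The share with 3 or more Hspa5 UMIs was at most 1.78% in Sst-like and 0.922% in Pvalb-like neurons, and most nuclei with Hspa5 UMIs held 1 or 2 at this depth. Without thinning, the Sst-like shares were 19.8%, 20.4%, 80.6% and 67.5%, from nuclei with median depths between 8769 and 10168 UMIs. OPC-like nuclei gave 7.60%, 7.59%, 32.7% and 26.4% after thinning. With 2 libraries against 2, the exact two-sided permutation test cannot go below p = 0.333, the value it gave wherever the labels did not overlap.

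**Figure D4:**
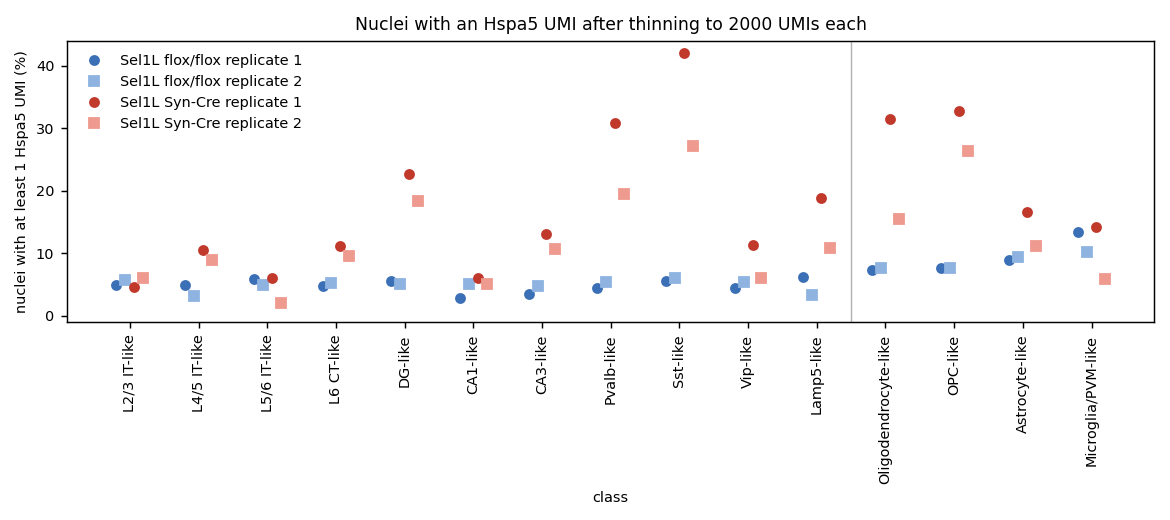
Share of nuclei with at least 1 Hspa5 UMI after thinning each nucleus to 2000 UMIs, in 15 classes, with 1 point per library (colours and shapes as in the plot of levels; vascular-like nuclei, few in number, are left out). Syn-Cre points reach 42.0% in Sst-like neurons and stay at or below 6.07% in CA1-like neurons.

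Other lists of folding genes are described in the 3 classes with most members called, where 1.83%, 2.18% and 5.13% of all genes were called higher. The lists were not tested against each other. Their counts include some genes that passed the filter only with the Syn-Cre libraries. Only the list genes named below were checked for this. Of 14 ER folding enzymes and lectins, 9 were higher in each of DG-like, Pvalb-like and Sst-like neurons, with median log2 fold changes of 0.94, 1.19 and 1.08. In L6 CT-like and CA3-like neurons 0 of 14 were called by edgeR (6 and 6 higher at an unadjusted p below 0.05, and 0 and 1 called by DESeq2), in Lamp5-like neurons 1 of 14, and in L4/5 IT-like neurons 3 of 14. Pdia6, a protein disulfide isomerase, was at 35.4, 30.2, 156 and 128 CPM in DG-like granule neurons (log2 fold change 2.05, edgeR adjusted p = 5.91e-06), and Pdia4 at 13.2, 7.72, 65.4 and 52.1 CPM (2.38, adjusted p = 6.94e-05). Ero1lb, an ER oxidase, was called in all 3 classes, with log2 fold changes of 1.86, 1.58 and 1.67. Pdia5, which passed the filter there with the Syn-Cre libraries, was at 4.20, 3.30, 31.9 and 27.2 CPM in Pvalb-like and at 3.10, 3.73, 59.7 and 33.4 CPM in Sst-like neurons, while in DG-like neurons its value was 0.83 (edgeR adjusted p = 0.0796).

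Of 17 other partners of BiP and GRP94 and further J proteins of the ER, 13 were tested in each of these classes and 4, 3 and 5 were higher. Among them were Creld2 (log2 fold changes 2.69, 3.26 and 2.67), Manf, a secreted protein that binds BiP (1.28, 1.61 and 1.69), and Sec63, the J protein of the translocon (1.04, 0.94 and 0.90). Of the UPR regulators, 4 of 12 tested in DG-like, 6 of 13 in Pvalb-like and 9 of 13 in Sst-like neurons were higher. Xbp1, the UPR factor spliced by IRE1, gave 1.66, 1.74 and 1.61, and Ddit3, which encodes CHOP, gave 2.68, 1.56 and 3.24. Creb3l2, an ER-bound transcription factor, was at 2.59, 1.13, 64.8 and 53.0 CPM in DG-like neurons. Trib3 was at 0.689, 2.13, 30.9 and 14.9 CPM in Sst-like neurons. These 2 pairs, Trib3 in Pvalb-like neurons, and Creld2 in Pvalb-like and Sst-like neurons passed the filter only with the Syn-Cre libraries. All of them are in the counts above, and list genes not named were not checked.

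Of the 24 cytosolic and mitochondrial HSP70 and HSP90 counterparts, 0 of 21 tested were called by edgeR or DESeq2 in DG-like neurons, with 2 higher and 2 lower at an unadjusted p below 0.05. In Pvalb-like neurons the count was also 0 of 21 by either tool, with 2 higher and 1 lower unadjusted. In Sst-like neurons 2 of 20 were higher, a share not far from that of all genes there (5.13%), Hspa9, the mitochondrial HSP70 (70.3, 77.7, 180 and 140 CPM, log2 fold change 1.04), and Hspa4 (93.0, 114, 143 and 172 CPM, log2 fold change 0.53). The median log2 fold changes of this list were -0.012, 0.062 and 0.12. In none of the lists was a gene called lower in these classes by edgeR or DESeq2, and in CA1-like neurons none of their genes was called by either tool, with 0, 1, 1 and 4 genes higher at an unadjusted p below 0.05.

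Across the 44 sums of the 11 neuron-like classes and 4 libraries, the genes outside the list whose log2(CPM + 1) followed Hspa5 most closely among 9828 genes with a mean of at least 10 CPM were Derl3 (Pearson's r = 0.963), Manf (0.949) and Ddx50 (0.947). For Hsp90b1 they were Pdia3 (0.953), Magt1 (0.933) and Pdia4 (0.928), and for Sdf2l1 they were Derl3 (0.957), Ddx50 (0.930) and Manf (0.918). Derl3, with a mean of 13.2 CPM, met the cutoff only through the Syn-Cre sums. Its flox/flox sums held at most 1.40 CPM. Within the list, r with Hspa5 was 0.951 for Hyou1, 0.945 for Hsp90b1, 0.943 for Sdf2l1, 0.941 for Dnajc3, 0.938 for Dnajb11 and 0.884 for Dnajb9. It was 0.492 for Dnajc10, -0.028 for Dnajc1 and -0.058 for Sil1. The sums share libraries and classes, so these values describe likeness only. Sel1l itself moved with the same classes. Its log2 fold change was 1.42 in DG-like (80.9, 72.4, 235 and 192 CPM), 2.00 in Pvalb-like, 1.90 in Sst-like and 0.99 in Lamp5-like neurons, all called, and it was -0.092 in CA1-like neurons (117, 108, 115 and 104 CPM). Cre was counted at 29.98, 0, 28.9 and 26.0 CPM in Pvalb-like and at 20.3, 0, 17.4 and 14.9 CPM in Sst-like neurons, and at 0.690, 0, 0.282 and 0.274 CPM in CA1-like neurons. In flox/flox replicate 1 the level of Cre was thus as high as in the Syn-Cre libraries, while its Hspa5 level, 25.8 CPM in Pvalb-like neurons, was that of the other flox/flox library.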

How the data were processed

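Filtered count matrices of 4 single-nucleus libraries were used. The deposited values are raw UMI counts per feature and barcode, made by the authors with Cell Ranger 6.1.0 on GRCm38 per the submitters' processing notes. Whether intronic reads and read strand were used in counting is not given in the sources used here. Nuclei with more than 600 genes and under 5% mitochondrial UMIs were kept. Nuclei were scored for doublets with Scrublet (scanpy 1.11.5), and the top-scoring ones were removed in each library (1246 and 572 flox/flox, 527 and 426 Syn-Cre), more from libraries with more barcodes, leaving 11116 and 7864 flox/flox and 7538 and 6805 Syn-Cre nuclei. Nuclei were integrated and clustered with Seurat 5.3.0 (2000 variable features, 17 dimensions, resolution 0.2, neurons again at 0.4), and a cluster was named only from at least 3 markers.

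Counts were summed per class and library and tested with edgeR 4.0.16 in R 4.3.3 (TMM, filterByExpr, quasi-likelihood F test, two-sided), 1 fit per class over 4 libraries, with Benjamini-Hochberg adjustment over all genes of the class. A gene was called at an adjusted p below 0.05. Interactions were fitted with library as a block. The scripts were tested on simulated data. DESeq2 1.42.0, RLE scaling, other filters, the replicate block, equal depth, doublets kept, clusters without integration and leaving out each library were tried. Libraries are single mice, so p-values measure the spread between 2 libraries per label. The members, gene lists and tests were chosen with earlier results of these data known. Named genes were all members, checks of the labels, up to 3 genes per other list with the largest called change in DG-like, Pvalb-like and Sst-like neurons, and the 3 genes most like Hspa5, Hsp90b1 and Sdf2l1.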

Additional observations from a re-analysis of the deposited data

Results flagged for a closer look

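The difference between the labels was not of the same size in all classes by the edgeR interaction test. Relative to CA1-like neurons, 8 of the 10 chaperone genes rose more in DG-like neurons (1.57% of all genes tested did). The number was also 8 in Pvalb-like (1.36%) and in Sst-like neurons (1.97%). L4/5 IT-like neurons had 4 (0.243%), Lamp5-like neurons 3 (0.0674%), L6 CT-like neurons 2 (0.238%) and CA3-like neurons 2 (0.0812%). Of these 35 calls, 4 were of Sdf2l1, which passed the filter in those classes only with the Syn-Cre libraries. Relative to astrocyte-like nuclei the number was 5 in DG-like (0.555%), 6 in Pvalb-like (0.833%) and 6 in Sst-like neurons (0.942%). Hspa5, Hsp90b1, Hyou1, Dnajc3 and Dnajb9 were in all 3 of the latter sets.

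The Cre sequence gave 409 UMIs in the library labelled Sel1L flox/flox replicate 1 and 0 in flox/flox replicate 2.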

How the results depend on the processing

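The count of member and class pairs called higher was 40 in neuron-like classes. It ranged from 33 to 44 over the 9 other settings that kept all 4 libraries, and from 36 to 48 with each library left out. In glia-like and vascular-like classes it was 8, and it was 0 with sums thinned to the 69783 UMIs of the smallest, 5 with doublets kept, and from 6 to 11 with each library left out. The 35 interaction calls against CA1-like neurons became 15 with DESeq2 and 21 with Vip-like neurons as the reference, and from 30 to 39 with each library left out. The cause of these moves was not tested, apart from the lower depth after thinning. The difference in the share of CA1-like nuclei with Hspa5 UMIs, 1.59 percentage points, turned to -0.0947 when 2 or more UMIs were asked for. Of the 48 called pairs, 30 were called in every setting that gave a value, and none changed sign. The 48 include 7 neuron-like pairs and 1 glia-like pair that passed the filter only with the Syn-Cre libraries. Of these, Sdf2l1 in DG-like, Pvalb-like and Sst-like neurons and Hyou1 in Lamp5-like neurons are among the 30. Their calls are no measure of stability. Without such pairs the main counts are 33 and 7. With a replicate block the counts were 42 and 11, and with the replicate numbers crossed, a fit chosen after seeing the data, 44 and 7. The numbers share only a name and the sex of the mouse, and the correlation of same-numbered deviations ran from -0.117 to 0.0844 over the classes. Depth limits Sdf2l1, which could not be tested in 5 classes, and vascular-like nuclei.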

Other observations

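Neuron clusters outside the 16 classes gave further values for Hspa5, described here with no test. A cluster named layer 5/6 near-projecting (L5/6 NP)-like stood at 23.1 and 27.7 CPM in the flox/flox and 52.7 and 54.5 CPM in the Syn-Cre libraries, with Dnajc3 at 56.0, 52.0, 130 and 102.5 CPM. A cluster led by Svil, Ccn2 and Tmem163 stood at 20.5, 27.8, 66.6 and 59.4 CPM, and a cluster led by Il1rapl2, Deptor and Rxfp2 at 20.7, 21.5, 43.7 and 46.9 CPM. In these 3 clusters the labels did not overlap. A layer 5 pyramidal tract (L5 PT)-like cluster led by L3mbtl4 stood at 13.8, 20.9, 31.1 and 22.0 CPM, without overlap of the labels. A smaller L5 PT-like cluster led by Fn1 stood at 24.3, 22.3, 29.6 and 18.1 CPM, with overlapping labels, while Dnajc3 was at 32.8, 37.0, 73.6 and 47.2 CPM in it. Sil1 in the L5/6 NP-like cluster was at 47.3, 44.4, 40.2 and 42.8 CPM.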
